A study of Mus musculus with 38 samples.

Results

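The 7 genes described here, Clec7a, Itgax, Gpnmb, Spp1, Lgals3, Axl and Cd9, encode surface and secreted proteins that microglia, the resident macrophages of the brain, are known to induce near amyloid plaques. They were picked by name, through the Ensembl identifier of each symbol, from the 48709 genes counted in the hippocampus of 38 mice. RNA sequencing was done in 8 groups. Mice of the pre-plaque group received chow from 2 months of age and were analysed at 6 months, and mice of the post-plaque group were treated from 6 months and analysed at 10 months. Each cohort held APPPS1ΔE9 mice, which carry the APP(Swe) and PS1ΔE9 transgenes, and wild-type (WT) littermates on the same C57BL/6 background. The transgenes are driven by the mouse prion protein promoter, so their expression does not follow the tissue pattern of App. The chow held anle138b, a small molecule that interferes with protein aggregation, at 2 g per kg of food, or was placebo. The 6-month groups held 4 mice each. Of the mice of 10 months, 5 WT received placebo and 5 anle138b, and of APPPS1ΔE9 mice 5 received placebo and 7 anle138b. Each library came from 1 mouse.

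Plaques of amyloid-β draw microglia to their surface, and these microglia leave their resting expression program. They lower some resting-state genes and raise genes for lipid handling, lysosomes and phagocytosis, a shift that depends in part on the receptor Trem2 and its adaptor Tyrobp. Among the genes described here, Clec7a encodes Dectin-1, a C-type lectin receptor, and Itgax encodes the integrin alpha X chain (CD11c), which pairs with the Itgb2 chain to form a complement receptor. Axl is a receptor tyrosine kinase that binds phosphatidylserine on dying cells through the bridging protein Gas6. Cd9 is a tetraspanin of the plasma membrane that is also abundant in oligodendrocytes, and Gpnmb is a transmembrane glycoprotein of phagosomes and lysosomes. Spp1 (osteopontin) and Lgals3 (galectin-3) are secreted. The first binds integrins and Cd44, and the second binds sugars that carry galactose.

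In the GRCm38 annotation the genes lie on 4 chromosomes. Clec7a is at chr6:129461591-129472779 on the minus strand, where the annotation marks it as a polymorphic pseudogene, and Itgax is at chr7:128129547-128150657 on the plus strand. Gpnmb is at chr6:49036546-49070929 (plus), Cd9 at chr6:125460266-125494791 (minus) and Axl at chr7:25757273-25788705 (minus). Spp1 is at chr5:104435118-104441050 (plus) and Lgals3 at chr14:47367751-47386160 (plus). Values are sums over all exons of a gene. Cd9 overlaps 2 genes of the opposite strand, Gm28809 and Gm26728, which had 93 and 165 counts over all mice against 42438 for Cd9. Spp1 overlaps Gm42793 on the same strand, with 13 counts against 7982.

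The promoters of 3 of the genes are shown because Clec7a and Itgax moved together in what follows while Spp1 did not move with them. Each is the stretch of 250 bases before the first start that RefSeq lists on GRCm38.p6, read along the gene. Capitals mark letters that match 1 of the 3 motifs searched. The motifs were CACGTG, the E-box bound by MITF and TFEB, then TGANTCA, the AP-1 site, and GAGGAAGT, a PU.1-type site, each on both strands.
Clec7a, chr6:129472780-129473029, minus strand: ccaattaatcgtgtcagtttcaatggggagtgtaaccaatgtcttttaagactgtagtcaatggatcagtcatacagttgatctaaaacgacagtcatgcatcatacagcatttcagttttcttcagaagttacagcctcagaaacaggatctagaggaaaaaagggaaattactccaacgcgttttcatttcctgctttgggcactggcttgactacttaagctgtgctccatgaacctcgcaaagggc
Itgax, chr7:128129300-128129549, plus strand: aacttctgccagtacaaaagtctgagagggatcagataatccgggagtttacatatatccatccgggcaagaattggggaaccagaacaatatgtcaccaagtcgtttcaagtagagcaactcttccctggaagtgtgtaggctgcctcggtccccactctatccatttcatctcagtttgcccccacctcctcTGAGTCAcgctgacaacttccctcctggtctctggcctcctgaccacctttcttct
Spp1, chr5:104434861-104435110, plus strand: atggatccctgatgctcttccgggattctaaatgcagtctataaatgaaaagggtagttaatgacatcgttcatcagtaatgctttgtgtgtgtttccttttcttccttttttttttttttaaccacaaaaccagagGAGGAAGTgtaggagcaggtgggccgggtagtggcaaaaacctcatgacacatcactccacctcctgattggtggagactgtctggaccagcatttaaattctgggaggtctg
The Itgax promoter held an AP-1 match, TGAGTCA, which ends 50 bases before the start. The Spp1 promoter held GAGGAAGT, which ends 106 bases before the start. The other 5 promoters, that of Clec7a among them, held none of the 3 motifs in this window. Among 27025 promoters of the same length, 6.05% held the E-box, 6.87% the AP-1 site and 2.44% the PU.1-type site. GC content was 42% in the Clec7a window, 50% in Itgax, 43.6% in Spp1 and 47.2% in Gpnmb, and 60% in Axl, 61.6% in Cd9 and 66% in Lgals3.

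The libraries held 15847985 to 31895808 counts on genes. The 4 placebo-treated WT mice of 6 months are WT by title but carry a transgene name in another label, and are taken as WT here. App, the gene of 1 transgene, was at 1504 to 1808 CPM, the counts scaled to library size, in WT mice and at 3226 to 4314 in APPPS1ΔE9 mice, without overlap, and these 4 mice were in the WT range. The mice were described as male. Xist, however, marked 12 mice at 1169 CPM or more, 11 of them WT, while the others were at 5.39 or less, so sex and genotype are partly confounded. The summed hippocampal markers (Prox1, Zbtb20, Spink8, Fibcd1, Wfs1 and C1ql2) were present in every mouse, at 711 to 1343 CPM. Choroid plexus markers (Ttr, Kl, Folr1, Clic6, Kcnj13 and Otx2) summed to 3956 to 7943 CPM in 10 of the 16 mice of 6 months and to 65.1 to 719 in the other 6. At 10 months only mouse 99 was high, at 4337 CPM, and the others were at 32.7 to 304. Each sequencing lane named in the sample titles held mostly 1 group, so lane and group cannot be told apart. In bulk tissue, fewer cells of a type and less RNA per cell cannot be told apart either.

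Levels below are CPM after normalisation by the trimmed mean of M-values (TMM), and a call is a Benjamini-Hochberg adjusted p under 0.1 in edgeR's quasi-likelihood test over all genes tested. Per length, as RPKM, which is CPM divided by exon length in kilobases, Cd9 was the most abundant of the 7 genes in placebo-treated APPPS1ΔE9 mice of 10 months, at 23.3 ± 3.84 (SD, n = 5). Axl followed at 12.6 ± 0.977, Spp1 at 3.9 ± 2.87 and Clec7a at 2.68 ± 0.595. Gpnmb was at 1.68 ± 0.333, Lgals3 at 0.855 ± 0.329 and Itgax at 0.792 ± 0.264. In placebo-treated WT mice of the same age the order differed at the low end, where Clec7a (0.233 ± 0.0781) and Itgax (0.107 ± 0.0150) were the least abundant. The plot of levels by group gives each mouse.

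**Figure D1:**
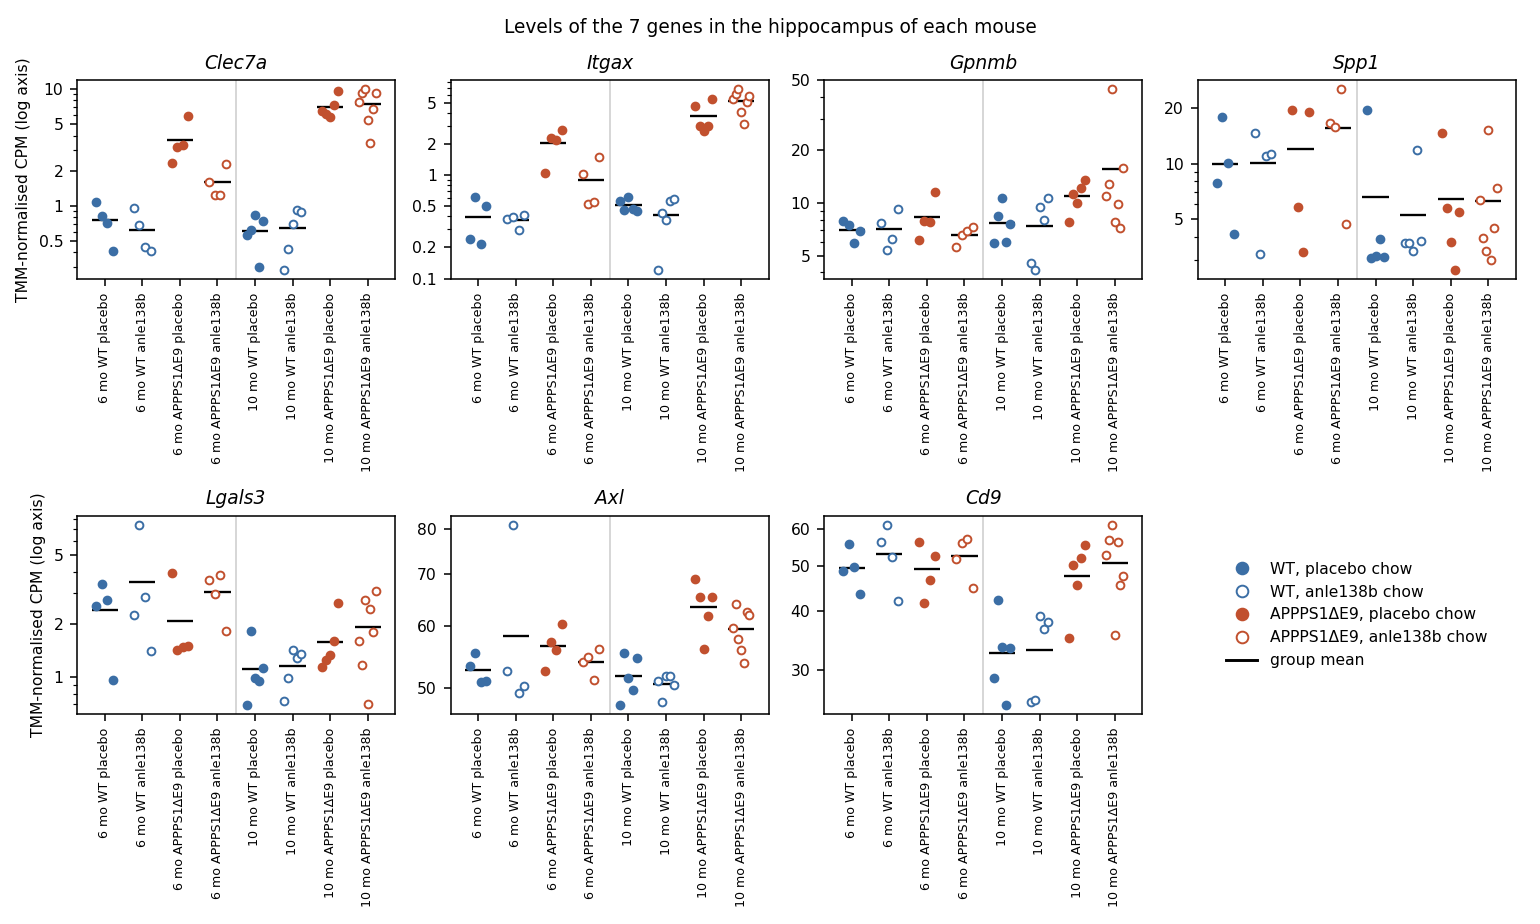
TMM-normalised CPM (log axis) of each of the 7 genes in the 38 mice, by cohort, genotype and chow, with group means as bars. Within each chow Clec7a and Itgax of APPPS1ΔE9 mice lie above WT in both cohorts, while the other 5 genes overlap between genotypes in at least 1 of the 4 comparisons.

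The first question was which of these genes differ between genotypes once plaques are established. In placebo-treated mice of 10 months, Clec7a and Itgax rose in APPPS1ΔE9 mice and the other 5 genes did not pass the threshold, so 2 of 7 were called while 0.324% of all genes tested were called. Clec7a was at 0.561, 0.622, 0.839, 0.30 and 0.747 CPM in the 5 WT mice. It was at 6.46, 6.09, 5.75, 7.37 and 9.65 CPM in the 5 APPPS1ΔE9 mice. The lowest transgenic mouse thus lay several-fold above the highest WT mouse, and the log2 fold change was 3.49 ± 0.24 (SE, adjusted p = 7.34e-05).

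Itgax was at 0.561, 0.466, 0.620, 0.471 and 0.457 CPM in the WT mice and at 4.74, 3.02, 2.69, 3.0 and 5.56 in the APPPS1ΔE9 mice. The groups did not overlap, and the log2 fold change was 2.87 ± 0.25 (adjusted p = 0.000453). Both calls held in all 10 fits that left out a mouse. The log2 fold change of Clec7a was then 3.32 to 3.64 and that of Itgax 2.69 to 2.97.

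The phagocytic receptor Axl was at 47.5, 55.4, 51.6, 49.7 and 54.6 CPM in WT mice and at 69.0, 65.5, 56, 61.8 and 65.4 in APPPS1ΔE9 mice. These values did not overlap either, as in 1.08% of the genes tested for higher transgenic values. The difference was small, with a log2 fold change of 0.29 ± 0.07, and it missed the threshold (adjusted p = 0.237). It was called with DESeq2 (adjusted p = 0.0359), which called 0.355% of genes, and without mouse 87 (adjusted p = 0.0986). Cd9 was at 28.8, 42.4, 33.5, 25.2 and 33.3 CPM in WT and at 35.1, 50.1, 45.5, 52 and 55.4 in APPPS1ΔE9 mice. Only mouse 57, at 35.1, lay within the WT range, and the log2 fold change of 0.54 ± 0.15 missed the threshold (adjusted p = 0.512).

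Gpnmb ranged from 5.86 to 10.6 CPM in WT and from 7.82 to 13.6 in APPPS1ΔE9 mice, with a log2 fold change of 0.50 ± 0.19 (adjusted p = 1). Of the secreted proteins, Lgals3 ranged from 0.686 to 1.83 and from 1.14 to 2.64 CPM (0.49 ± 0.30, adjusted p = 1). Spp1 had nearly the same mean in both genotypes, 6.54 ± 7.26 CPM in WT (SD, n = 5) and 6.43 ± 4.73 in APPPS1ΔE9 mice. Its log2 fold change was 0.02 ± 0.64, and the SE leaves room for a difference of either sign. In each of these groups 1 mouse stood far above the rest, mouse 52 at 19.5 CPM among WT and mouse 57 at 14.6 among APPPS1ΔE9 mice.

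The same question was asked in the anle138b-treated mice of 10 months, which share no mouse with the comparison above. Clec7a, Itgax and Axl rose, so 3 of 7 genes were called against 0.723% of all genes tested, and 0.694% in the higher direction. Clec7a was at 0.284, 0.430, 0.696, 0.918 and 0.883 CPM in WT mice, and the lowest, median and highest of the 7 APPPS1ΔE9 mice were 3.47, 7.72 and 9.97. The log2 fold change was 3.52 ± 0.34 (adjusted p = 0.000292). Itgax was at 0.121, 0.430, 0.366, 0.559 and 0.589 CPM in WT, against 3.19, 5.50 and 6.85 as the lowest, median and highest of the APPPS1ΔE9 mice (3.65 ± 0.30, adjusted p = 6.44e-05). Neither gene overlapped between genotypes, and mouse 99, the mouse with choroid plexus markers, was the lowest transgenic mouse in both.

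Axl was at 51.1, 47.9, 51.8, 51.8 and 50.4 CPM in WT, and the lowest, median and highest APPPS1ΔE9 mice were at 53.9, 59.6 and 64.2. The genotypes did not overlap, as in 0.799% of genes for higher transgenic values, and the log2 fold change was 0.23 ± 0.05 (adjusted p = 0.0780). The call was the least stable of the 3. It was lost in 10 of the 12 fits that left out a mouse (adjusted p of 0.111 to 0.282 in those), and held only without mouse 97 or mouse 99.

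Cd9 was at 25.6, 25.9, 39.1, 36.6 and 37.9 CPM in WT mice and at 35.6, 52.7 and 61.2 as lowest, median and highest in APPPS1ΔE9 mice. Its log2 fold change of 0.62 ± 0.15 missed the threshold (adjusted p = 0.154), and it was called without mouse 97 (adjusted p = 0.0312) and with DESeq2 (adjusted p = 0.00916). DESeq2 called 0.58% of genes in this comparison. Mouse 97, the lowest transgenic mouse, also had the lowest oligodendrocyte markers of its group. Lgals3 was higher on average in transgenic mice (0.75 ± 0.33, adjusted p = 0.838), with values of 0.729 to 1.43 CPM in WT and 0.698 to 3.09 in APPPS1ΔE9 mice.

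Gpnmb was at 4.14 to 10.7 CPM in WT. In APPPS1ΔE9 mice its lowest, median and highest values were 7.18, 10.9 and 44.5, with a log2 fold change of 1.07 ± 0.47 (adjusted p = 0.838). The highest value came from mouse 93, the only APPPS1ΔE9 mouse with high Xist. With a term for high Xist, the log2 fold change of Gpnmb was 1.66 (adjusted p = 0.00576) and that of Cd9 0.85 (adjusted p = 0.00455). That fit called 299 of 17151 genes (1.74%). The term compares genotypes within mice of high and of low Xist. Those of high Xist were mouse 93 and the 3 high-Xist WT mice of the same chow. The WT mice of low Xist were mice 60 and 61, which had the lowest Gpnmb and Cd9 of their group. Both were among the mice with low hippocampal and oligodendrocyte markers, as was mouse 63 of high Xist. Spp1 overlapped (0.24 ± 0.46, adjusted p = 0.907).

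**Figure D2:**
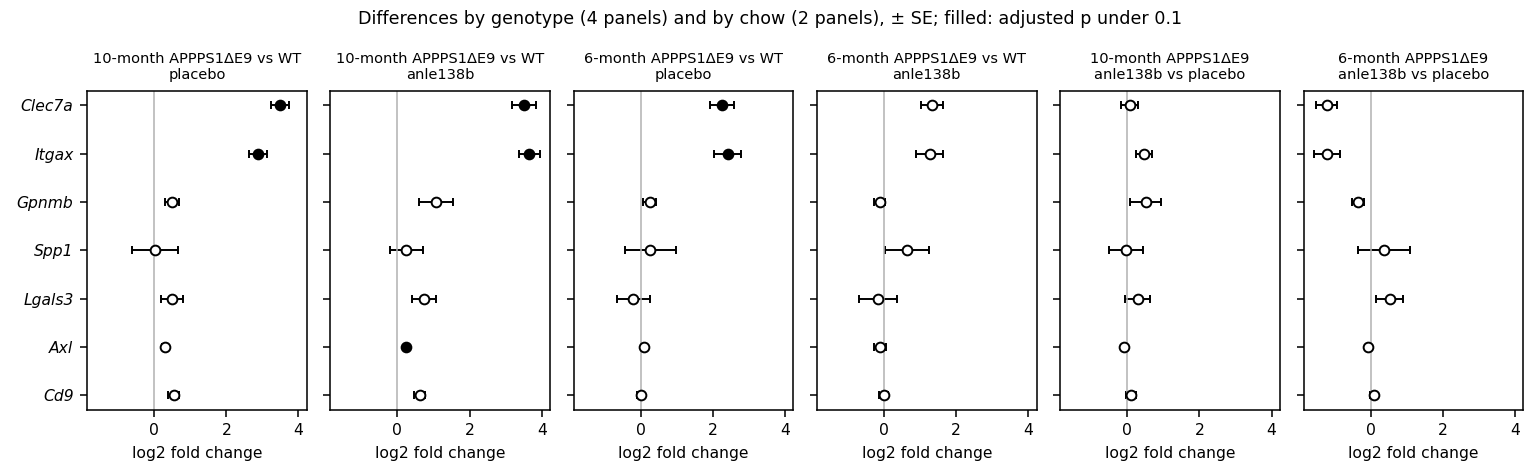
log2 fold changes (horizontal axis) of the 7 genes with their SE in the 4 comparisons of genotype and the 2 comparisons of chow in APPPS1ΔE9 mice. Filled points have an adjusted p under 0.1; they are Clec7a and Itgax in 3 panels and Axl in 1.

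At 6 months the question was whether the same genes already differed. In placebo-treated mice Clec7a and Itgax rose, 2 of 7 genes, where 0.0715% of all genes tested were called. Clec7a was at 1.08, 0.825, 0.713 and 0.409 CPM in WT and at 2.34, 3.17, 3.35 and 5.84 in APPPS1ΔE9 mice (2.26 ± 0.33, adjusted p = 0.0380). Itgax was at 0.240, 0.619, 0.214 and 0.500 CPM in WT and at 1.07, 2.3, 2.21 and 2.76 in APPPS1ΔE9 mice (2.41 ± 0.37, adjusted p = 0.0419). Neither gene overlapped between genotypes. Values did not overlap, with the transgenic mice higher, in 2.59% of genes.

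Each of the 2 calls held in only 3 of the 8 fits that left out a mouse. Clec7a lost its call when any 1 of the transgenic mice 71 and 74 or the WT mice 31, 37 and 77 was left out, with an adjusted p of 0.107 to 0.213. Itgax lost it when any 1 of the transgenic mice 71, 74 and 75 or the WT mice 30 and 77 was left out (adjusted p of 0.111 to 0.220). The log2 fold changes stayed between 2.07 and 2.55 in those fits. The other 5 genes had adjusted p-values of 0.533 or more, with log2 fold changes of 0.25 ± 0.18 for Gpnmb, 0.27 ± 0.70 for Spp1, 0.10 ± 0.06 for Axl, −0.00 ± 0.10 for Cd9 and −0.21 ± 0.45 for Lgals3.

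In anle138b-treated mice of 6 months no member was called with edgeR or with DESeq2, where edgeR called 0.047% of all genes. Clec7a and Itgax had an unadjusted p under 0.05, 2 of 7 members, as had 961 of the 17033 genes tested (5.64%). Clec7a was at 0.962, 0.682, 0.442 and 0.414 CPM in WT and at 1.59, 1.24, 1.25 and 2.26 in APPPS1ΔE9 mice (1.34 ± 0.31, adjusted p = 0.481 in edgeR's quasi-likelihood test). Itgax was at 0.376, 0.398, 0.295 and 0.414 CPM in WT and at 1.02, 0.529, 0.550 and 1.51 in APPPS1ΔE9 mice (1.26 ± 0.38, adjusted p = 0.783). All transgenic mice were above all WT mice for both genes, as for 1.9% of genes. The other 5 genes overlapped between genotypes, and Lgals3 and Axl were both highest in WT mouse 39, at 7.45 and 80.9 CPM.

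Choroid plexus content differed between the 6-month groups. It was high in 3 of 4 mice of each WT group and of the anle138b-treated APPPS1ΔE9 group, and in 1 of 4 placebo-treated APPPS1ΔE9 mice. Among the mice with high markers Clec7a was at 0.442 to 1.08 CPM in the 6 WT and at 1.24 to 2.34 in the 4 APPPS1ΔE9 mice. Among those with low markers it was at 0.409 and 0.414 in the 2 WT and at 2.26 to 5.84 in the 4 APPPS1ΔE9 mice. The genotypes were apart within both sets, and the transgenic mice with high choroid plexus markers had the lower Clec7a values apart from a near tie of 2.26 and 2.34. Itgax gave the same picture, with 0.214 to 0.619 against 0.529 to 1.07 CPM in mice with high markers and 0.414 to 0.500 against 1.51 to 2.76 in mice with low markers. Unlike Clec7a, Itgax overlapped between genotypes in the set with high markers. How many of all genes would be apart between genotypes within these small sets was not counted, so the separation cannot be weighed against a share.

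With the choroid plexus level as a covariate the placebo differences at 6 months were 2.13 for Clec7a (adjusted p = 0.228) and 2.03 for Itgax (adjusted p = 0.0979). One lane of the 6-month cohort held both genotypes, though of different chow. There the WT mice 41 and 83 had 0.442 and 0.414 CPM of Clec7a, and the 4 placebo-treated APPPS1ΔE9 mice had 2.34 to 5.84. The share of all genes apart in that lane was not counted either.

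**Figure D3:**
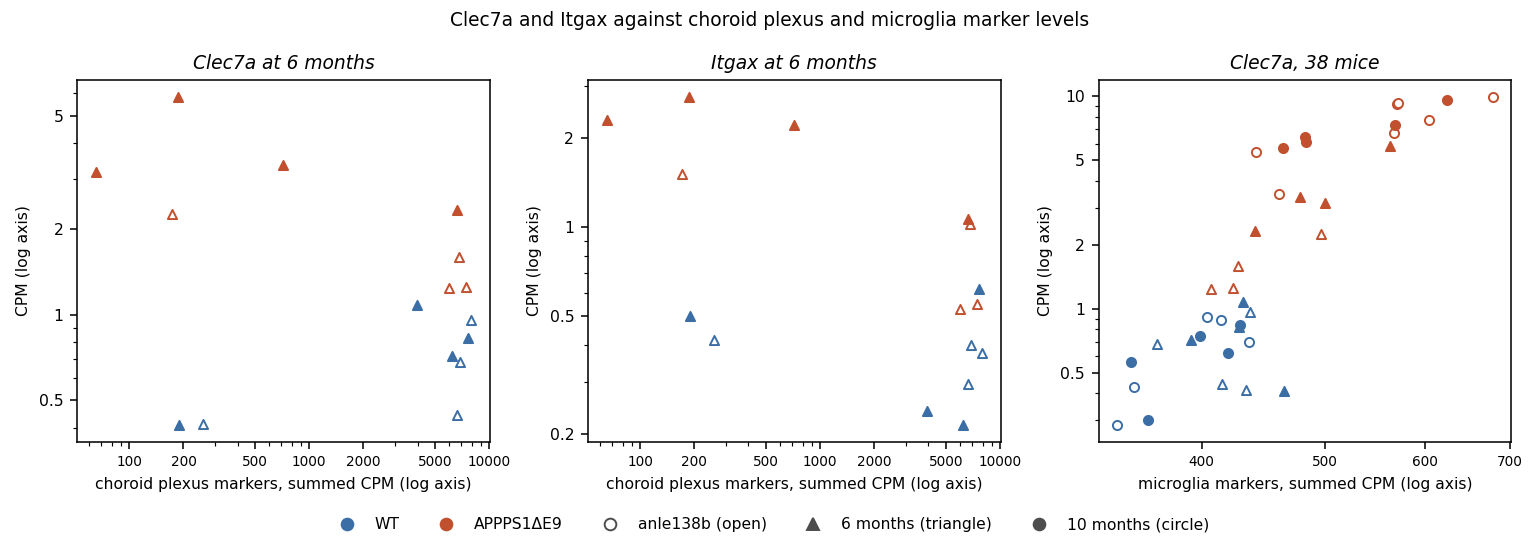
Clec7a and Itgax (CPM, log axis) against the summed choroid plexus markers in the 16 mice of 6 months, and Clec7a against the summed microglia markers in all 38 mice (log axes). Triangles are mice of 6 months, circles of 10 months, and open symbols anle138b. At 6 months Clec7a of APPPS1ΔE9 mice lies above WT at both low and high choroid plexus levels. The share of all genes that do so was not counted.

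The comparison of chow asks whether anle138b altered these genes in APPPS1ΔE9 mice. It shares its groups with the comparisons of genotype, so the results are not independent. At 6 months the anle138b-treated mice had less Clec7a and Itgax, but no member passed the threshold in edgeR, which called 0.0529% of all genes. Clec7a was at 1.24 to 2.26 CPM with anle138b and at 2.34 to 5.84 with placebo, and was thus lower without overlap, as were 3.41% of all genes. Its log2 fold change was −1.21 ± 0.29 (adjusted p = 0.280 with edgeR, unadjusted under 0.05 as for Itgax and 13.1% of all genes), and DESeq2 called it (adjusted p = 0.0271). That DESeq2 fit called 205 of 31422 genes (0.652%), a larger share than with edgeR. Itgax was at 0.529 to 1.51 CPM against 1.07 to 2.76 (−1.21 ± 0.37, adjusted p = 0.310).

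Mouse 17, the only placebo-treated APPPS1ΔE9 mouse with high choroid plexus markers, had the lowest Clec7a (2.34) and Itgax (1.07) and the highest Lgals3 (3.94) of its group. Without it edgeR called 3 members, Clec7a (−1.38, adjusted p = 0.0527), Itgax (−1.43, adjusted p = 0.0737) and Lgals3, the last in the opposite direction (1.06, adjusted p = 0.0815). That fit called 317 of 17196 genes (1.84%). Without it, however, the 2 chow groups also differed fully in choroid plexus content apart from mouse 84. With the choroid plexus level as a covariate the difference was −0.90 for Clec7a (adjusted p = 0.602) and −0.76 for Itgax (adjusted p = 0.628). Within the 4 mice with high markers it was −0.77 for Clec7a, and within the 4 with low markers −0.86, with 1 mouse in an arm each time and neither called. Chow and tissue content cannot be told apart in these groups, and the part of each in the difference was not tested beyond these values.

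At 10 months edgeR called no member and no gene between anle138b- and placebo-treated APPPS1ΔE9 mice, and DESeq2 called none either. Unadjusted p-values were under 0.05 for 254 genes and for no member. Clec7a was at 7.41 ± 2.35 CPM (SD, n = 7) with anle138b and at 7.06 ± 1.57 (n = 5) with placebo, with a log2 fold change of 0.07 ± 0.23. Itgax was at 5.26 ± 1.26 and 3.80 ± 1.27 CPM (0.47 ± 0.22, adjusted p = 0.999 in edgeR's quasi-likelihood test). The log2 fold change was 0.51 ± 0.42 for Gpnmb and −0.05 ± 0.47 for Spp1, whose SE were the widest of the 7 genes. Axl (−0.09 ± 0.06), Cd9 (0.10 ± 0.14) and Lgals3 (0.29 ± 0.34) overlapped between chow groups.

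In WT mice edgeR called no gene with anle138b at either age, and unadjusted p-values under 0.05 (212 genes at 10 months and 310 at 6 months) included no member. DESeq2 called no gene at 10 months, and its 2 genes at 6 months included no member. Itgax was too low to be tested in WT mice of 6 months. The interaction of genotype and chow called no gene with edgeR in either cohort, with 407 genes at 10 months and 1390 at 6 months under an unadjusted p of 0.05 and no member among them. DESeq2 called 2 and 28 genes, again no member. For Clec7a the interaction was 0.02 ± 0.44 at 10 months and −0.92 ± 0.49 at 6 months. For Itgax it was 0.78 ± 0.40 and −1.14 ± 0.58 (adjusted p = 0.989 and 0.637 in edgeR's quasi-likelihood test).

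The cohorts were then compared within genotype and chow. They differ in age, in the age at which treatment began, in the length of life with plaques and in the choroid plexus content of the samples. The titles repeat the same sample and lane numbers in both cohorts, so the sequencing run may differ too. None of these can be told apart. Large shares of all genes were called here, and the calls of single genes are to be read against those shares. In placebo-treated APPPS1ΔE9 mice 4.32% of genes were called, and of the members only Clec7a, which was higher at 10 months (0.95 ± 0.26, adjusted p = 0.0986), as were 3.67% of genes. That call was lost in 6 of the 9 fits without a mouse, those without mice 87, 91, 100, 17, 71 or 74 (adjusted p of 0.141 to 0.254). Itgax was higher by 0.88 ± 0.30 (adjusted p = 0.170) and was called with DESeq2 (adjusted p = 0.0767), as were 4.19% of genes.

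In anle138b-treated APPPS1ΔE9 mice 43.4% of genes (22.9% higher and 20.4% lower) and 5 of 7 members were called. Clec7a (2.22 ± 0.30, adjusted p = 0.000277), Itgax (2.55 ± 0.31, adjusted p = 0.000117), Gpnmb (1.24 ± 0.49) and Axl (0.14 ± 0.05) were higher at 10 months, and Spp1 was lower (−1.32 ± 0.48). Clec7a and Itgax did not overlap between ages, as in 12.5% of genes for higher values at 10 months. The calls of Gpnmb, Axl and Spp1 had adjusted p-values of 0.0704, 0.0655 and 0.0546, and were lost in 5, 4 and 2 of the 11 fits without a mouse. Gpnmb lost its call when any 1 of the 4 mice of 6 months or the 10-month replicate 7 was left out (adjusted p of 0.104 to 0.142) and Axl without mouse 15, 16 or 27 or that replicate (0.103 to 0.194). Spp1 lost it without mouse 16 or 27 (0.107 and 0.178), and Lgals3, lower by −0.65 ± 0.34 in the fit of all mice, was called without that replicate or mouse 84 (0.0824 and 0.0882). With choroid plexus markers as a covariate only Clec7a (1.72, adjusted p = 0.00524) and Itgax (2.09, adjusted p = 0.00174) were called, in a fit that called 28% of genes.

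In WT mice neither Clec7a nor Itgax was called between ages. Clec7a differed by −0.29 ± 0.33 with placebo and by 0.05 ± 0.39 with anle138b, and Itgax by 0.41 ± 0.33 and 0.15 ± 0.39. Lgals3 and Cd9 were called in both WT comparisons, 2 of 7 members each, where 33.4% of genes were called with placebo and 28.3% with anle138b, and 15.9% and 12.5% in the lower direction. Lgals3 was lower at 10 months by −1.09 ± 0.35 with placebo and −1.57 ± 0.45 with anle138b, and Cd9 by −0.59 ± 0.13 and −0.67 ± 0.16. Cd9 was lower at 10 months without overlap in both, as were 10.2% of genes with placebo and 8.92% with anle138b. With the choroid plexus level as a covariate, neither was called, and the difference of Lgals3 turned to 0.40 (adjusted p = 0.583) and 0.33 (adjusted p = 0.915). Lgals3 also lost its call with placebo without mouse 31 or 37 (adjusted p of 0.139 and 0.105). Spp1 was lower at 10 months in WT mice by −0.65 ± 0.65 with placebo and −0.93 ± 0.47 with anle138b, and was called only when mouse 52 was left out of the first (−1.59, adjusted p = 0.0115), or mouse 63 (−1.46, adjusted p = 0.0256) or 39 (−1.22, adjusted p = 0.0727) out of the second.

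Whether the genotype difference itself grew from 6 to 10 months was tested as an interaction. With placebo edgeR called no gene, and 1089 genes (6.16%) had an unadjusted p under 0.05, Clec7a and Cd9 among them. DESeq2 called 14 genes and no member. The difference was larger at 10 months by 1.23 ± 0.43 for Clec7a (adjusted p = 0.705) and by 0.46 ± 0.49 for Itgax (adjusted p = 0.959). With anle138b it was larger by 2.18 ± 0.51 for Clec7a (adjusted p = 0.244) and 2.40 ± 0.52 for Itgax (adjusted p = 0.151), and edgeR called 0.028% of genes and no member. In edgeR 1044 genes (5.84%) had an unadjusted p under 0.05 there, Clec7a, Itgax, Axl and Cd9 among them. DESeq2 called Clec7a and Itgax (adjusted p = 0.0119 and 0.00539), and so did edgeR without mouse 99 (adjusted p = 0.0619 and 0.0774). The DESeq2 fit called 42 of 34541 genes (0.122%).

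In order of their mean levels, the 8 groups of Clec7a ran from anle138b- and placebo-treated APPPS1ΔE9 mice of 10 months (7.41 and 7.06 CPM) to the placebo-treated (3.67) and anle138b-treated (1.59) APPPS1ΔE9 mice of 6 months. The 4 WT groups followed at 0.614 to 0.757 CPM, within 1 SD of each other. Itgax had the same order among the transgenic groups (5.26, 3.80, 2.08 and 0.903 CPM), and its WT groups were at 0.371 to 0.515. For Clec7a the pair of 10 months did not differ beyond its spread. For Itgax that pair differed by more than 1 SD and missed the threshold, as given above. The steps between 6 and 10 months with placebo and between chow groups at 6 months had tests on both sides of the threshold, as given above.

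Microglia markers (among them Cx3cr1, P2ry12, Tmem119, Csf1r, Sall1, Siglech, Gpr34, Olfml3 and Fcrls) were measured beside these genes. At 10 months their sum was 524 ± 68.9 CPM in placebo-treated APPPS1ΔE9 mice and 392 ± 33.8 in WT (SD, n = 5 each), a ratio of 1.34 without overlap. With anle138b it was 556 ± 81.6 against 390 ± 39.9 CPM, a ratio of 1.43, also without overlap. Clec7a was 1.34% ± 0.124 of that sum in placebo-treated APPPS1ΔE9 mice and 0.155% ± 0.0448 in WT, a ratio of 8.65 where the ratio of its CPM was 11.5. Itgax was 0.722% ± 0.202 and 0.132% ± 0.0203, a ratio of 5.47. For these 2 genes the shares did not overlap between genotypes in any of the 4 comparisons. How many of all genes would not overlap as a share of that sum was not counted.

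The shares of the other 5 genes overlapped between genotypes in all 4 comparisons. As a share of the microglia sum, Axl was at 12.3% ± 1.66 in placebo-treated APPPS1ΔE9 and 13.2% ± 0.695 in WT mice of 10 months, a ratio of 0.927, and at 0.830 with anle138b. The ratio was 1.07 for Gpnmb, 1.06 for Lgals3, 1.10 for Cd9 and 0.718 for Spp1 with placebo. With anle138b it was 1.43, 1.19, 1.09 and 0.892 for these genes. At 6 months the microglia sum itself overlapped between genotypes, with ratios of 1.16 with placebo and 1.06 with anle138b. The ratio of the Clec7a share was then 4.07 with placebo and 2.35 with anle138b, and that of Itgax 4.57 and 2.23.

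Over the 12 APPPS1ΔE9 mice of 10 months, of both chows, the mice with more microglia marker RNA had more Clec7a (Pearson r = 0.835, permutation p = 0.00042, Spearman rho = 0.965, permutation p = 2e-05). Of 42 such relations tested at 10 months, 7 genes with 3 marker lists in each genotype, this had an adjusted p of 0.00588 for r and 0.00084 for rho, and r was 0.866 without the 2 mice farthest from the median. These measures come from the same libraries. Gpnmb gave r = 0.690 (permutation p = 0.00502, rho = 0.769, permutation p = 0.00461) in these mice and 0.933 (permutation p = 0.0002, rho = 0.879, permutation p = 0.0017) in the 10 WT mice. Without the 2 farthest mice these were 0.665 and 0.928. Axl gave 0.250 in APPPS1ΔE9 mice (permutation p = 0.431, rho = 0.308, permutation p = 0.332), and −0.22 without the 2 farthest.

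Cd9 varied with oligodendrocyte markers (among them Mbp, Mog, Mag and Mobp). In the 12 APPPS1ΔE9 mice r was 0.869 (permutation p = 0.00022, rho = 0.923, permutation p = 7e-05, adjusted p = 0.00462 for r) and 0.658 without the 2 farthest mice, and in the 10 WT mice it was 0.667 (permutation p = 0.0417, rho = 0.721, permutation p = 0.0231, adjusted p = 0.0965 for r) and 0.939 without the 2 farthest. Cd9 also varied with the microglia markers. In WT mice r was 0.899 (permutation p = 0.00157, rho = 0.818, permutation p = 0.00628, adjusted p = 0.0132 for r) and 0.888 without the 2 farthest, and in APPPS1ΔE9 mice it was 0.640 (permutation p = 0.0236, rho = 0.629, permutation p = 0.0319, adjusted p = 0.0707 for r) and 0.732 without the 2 farthest. The oligodendrocyte markers ranged from 2241 to 7168 CPM among the mice of 10 months. With their level as a covariate, 5 of 7 members were called between genotypes with placebo at 10 months. Cd9 was then higher by 0.60 (adjusted p = 0.00418), Gpnmb by 0.57 (adjusted p = 0.0712) and Axl by 0.29 (adjusted p = 0.0982), beside Clec7a and Itgax. That fit called 121 of 16971 genes, where the fit without the covariate called 55. With anle138b the covariate fit called 4 members, Cd9 among them (0.52, adjusted p = 0.0786), and 145 of 17151 genes, against 124 without it. The median log2 fold change of the oligodendrocyte markers between genotypes was −0.12 with placebo and 0.16 with anle138b, with none called.

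Spp1 varied with markers of leptomeningeal fibroblasts (Dcn, Lum, Col1a1, Col1a2 and Igf2). In WT mice of 10 months r was 0.825 (permutation p = 0.00064, rho = 0.770, permutation p = 0.0128, adjusted p = 0.00672 for r) and 0.651 without the 2 farthest mice. In APPPS1ΔE9 mice r was 0.565 (permutation p = 0.0574, rho = 0.469, permutation p = 0.126) and 0.279 without the 2 farthest. Spp1 was also lower in mice with more oligodendrocyte marker RNA. There r was −0.73 in APPPS1ΔE9 mice (permutation p = 0.00768, rho = −0.54, permutation p = 0.075, adjusted p = 0.0358 for r) and −0.62 in WT mice (permutation p = 0.0404, rho = −0.66, permutation p = 0.0439, adjusted p = 0.0965 for r), and −0.27 and −0.44 without the 2 farthest mice. The 4 mice of 10 months with the highest Spp1 were 1 from each group, mice 52, 97, 57 and 63 at 19.5, 15.3, 14.6 and 11.9 CPM. Their fibroblast markers were at 301, 245, 259 and 213 CPM, the highest of each group, where the other mice of 10 months had 39.2 to 213. With that level as a covariate the fall of Spp1 between ages in anle138b-treated APPPS1ΔE9 mice was −0.15 (adjusted p = 0.886). The part of meningeal tissue in Spp1 was not tested further.

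**Figure D4:**
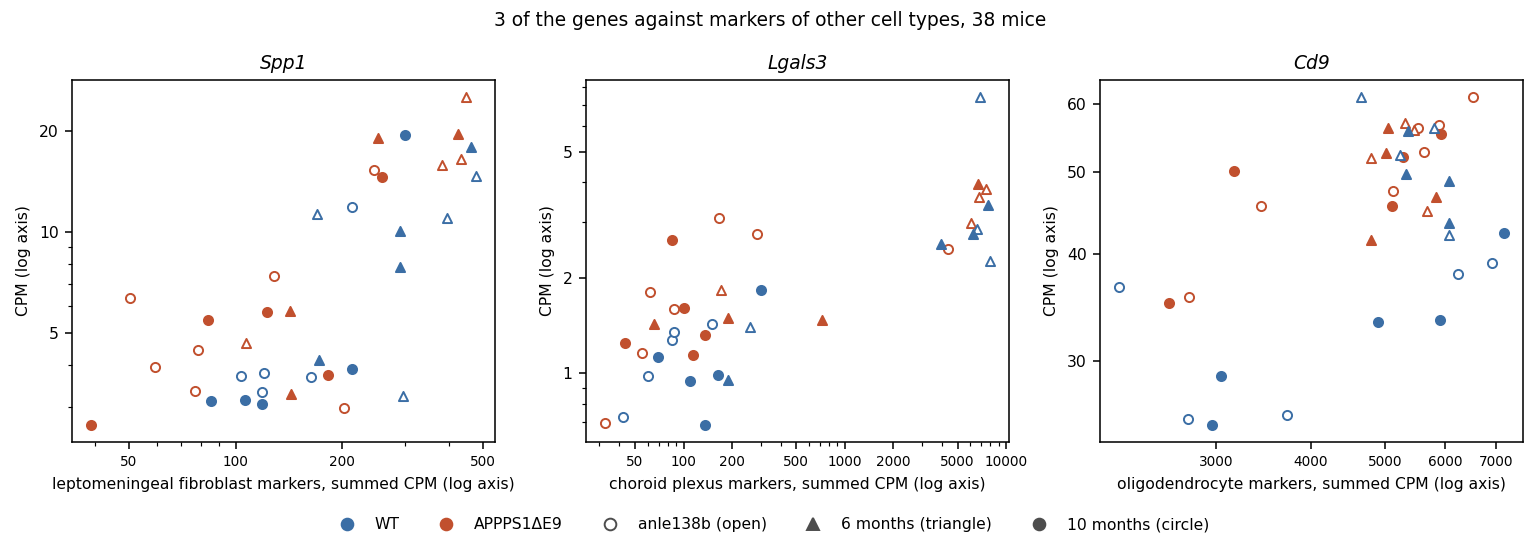
Spp1 against leptomeningeal fibroblast markers, Lgals3 against choroid plexus markers and Cd9 against oligodendrocyte markers, in CPM on log axes, over all 38 mice. The 10 mice of 6 months with choroid plexus markers of 3956 CPM or more have Lgals3 at 2.26 CPM or more, and both genotypes are mixed among them.

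Lgals3 followed choroid plexus content at 6 months. In WT mice it was at 2.26 to 7.45 CPM in the 6 with high markers and at 0.954 and 1.39 in the 2 with low markers. In APPPS1ΔE9 mice it was at 2.98 to 3.94 and at 1.42 to 1.83 CPM, so the sets did not overlap in either genotype. Genes with higher values and no overlap in the mice with high markers were 10.8% of all genes in WT and 7.96% in APPPS1ΔE9 mice. Cd9 was at 48.8 to 61.2 CPM in the WT mice with high markers and at 42.1 and 43.6 in those with low markers, and in APPPS1ΔE9 mice at 51.8 to 57.1 and 41.6 to 52.6. These sets were formed by tissue content and are not groups of the study. Markers of border macrophages (Mrc1, Cd163, Lyve1, F13a1 and Pf4), cells that also express several of these genes, summed to 5.29 to 20.6 CPM over all mice. They were not higher in APPPS1ΔE9 mice of 10 months, with 5 of 5 tested between genotypes with anle138b and 4 of 5 with placebo having a negative log2 fold change and none called. At 6 months the log2 fold change was positive for 4 of 5 with placebo (median 0.10) and for 5 of 5 with anle138b (median 0.18), again with none called. Monocyte and neutrophil markers summed to 5.31 CPM or less in every mouse.

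The other genes of the plaque response gave the wider picture at 10 months. Of 21 such genes measured, a list chosen with results of these data known, 7 rose and none fell with placebo in the comparison of genotypes, and 10 rose with anle138b. Over all genes tested, 0.324% were called with placebo and 0.723% with anle138b. The median log2 fold change of the list was 0.67 with placebo and 0.63 with anle138b, against −0.00 over all genes tested in both. Cst7, which encodes the protease inhibitor cystatin F, rose from 0.161 ± 0.0527 to 12.9 ± 4.62 CPM with placebo (SD, n = 5, log2 fold change 6.33 ± 0.33, adjusted p = 6.31e-06). Trem2 rose by 1.24 ± 0.16 on the log2 scale, its adaptor Tyrobp by 1.40 ± 0.11, and the lysosomal genes Cd68 and Ctsd by 1.2 ± 0.13 and 0.81 ± 0.09.

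At 6 months 2 of the 21 genes were called with placebo, against 0.0715% of all genes tested. They were Cst7 (5.12 ± 0.45, adjusted p = 0.00193) and the chemokine gene Ccl6 (1.09 ± 0.17, adjusted p = 0.0360), the latter named after its values were seen. None of the list was called with anle138b, where the log2 fold change of Cst7 was 4.10 ± 0.67 (adjusted p = 0.284). Between the chows in APPPS1ΔE9 mice of 6 months none was called, and Cst7 was at 1.98 ± 1.19 CPM with anle138b against 5.79 ± 2.21 with placebo (n = 4 each, adjusted p = 0.324). At 10 months these were 16.1 ± 5.56 (n = 7) and 12.9 ± 4.62 CPM (n = 5).

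Among 28 receptors, ligands and signalling partners of the 7 proteins, 1 rose with placebo at 10 months, Itgb5, an integrin chain that binds osteopontin with Itgav (0.42 ± 0.07, adjusted p = 0.0345). With anle138b 3 rose, Itgb5 (0.45 ± 0.10, adjusted p = 0.0795), Itgb2 (0.88 ± 0.14, adjusted p = 0.0129), and Lgals3bp, which binds galectins (0.97 ± 0.18, adjusted p = 0.0310). With placebo the log2 fold change of Itgb2 was 0.85 ± 0.17 (adjusted p = 0.109) and that of Lgals3bp 0.80 ± 0.16 (adjusted p = 0.103). Of all genes tested at 10 months, 0.324% were called with placebo and 0.723% with anle138b. The median log2 fold change of the 28 was then 0.09 and 0.11. None of the 28 was called at 6 months in either comparison of genotypes. Itgb2, the partner chain of Itgax, was at 12.1 ± 2.21 CPM in placebo-treated APPPS1ΔE9 and 6.67 ± 1.40 in WT mice of 10 months (SD, n = 5 each).

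Likeness of pattern was measured as the Pearson r of log2 CPM over the 38 mice, among 18232 genes, and reflects genotype, age and tissue content together. Clec7a and Itgax were alike, with r = 0.955, and r was 0.851 over the 12 APPPS1ΔE9 mice of 10 months and 0.727 over the 10 WT mice of that age, after the chow means were removed. The genes most like Clec7a were Cst7 (0.971), Trem2 (0.952) and Mpeg1 (0.952), and those most like Itgax were Cst7 (0.963), Cd68 (0.948) and Mpeg1 (0.942). Gpnmb was most like Bhlhe41 (0.831), Tlr7 (0.825) and Olfml3 (0.825). Axl was most like Runx1 (0.812), Capg (0.809) and Msn (0.767).

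Spp1, Lgals3 and Cd9 had other nearest genes. Spp1 was most like H2-Q1 (0.891), Nupr1 (0.863) and Bmp7 (0.846), and Lgals3 was most like Slc37a2 (0.869), Lrp10 (0.857) and Adipor1 (0.855). Cd9 was most like Ctsl (0.876), F11r (0.870) and Itgb5 (0.869). Between members, Lgals3 and Cd9 had r = 0.774 over all mice, while Clec7a had r = −0.04 with Spp1 and 0.0937 with Lgals3.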

How the data were processed

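Hippocampal poly(A) RNA of 38 mice was sequenced. The authors aligned the reads to mm10 with STAR and counted them per gene with HTSeq, and the deposited values are these raw counts. Strand use in counting and the annotation version are not given in the sources used here. Of 48709 genes, 48349 matched GENCODE M21, from which symbols, positions and exon lengths were taken. Promoter sequences came from RefSeq. Totals were 15847985 to 31895808 counts per mouse.

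Groups followed the sample titles. Replicates are separate mice. No files were identical, and the 75 replicate pairs differed by 3.17 to 65.3 times the sampling noise. Counts were tested with edgeR 4.0.16 (R 4.3.3) by quasi-likelihood, with TMM scaling, filterByExpr (minimum count 10, total 15), robust fitting and Benjamini-Hochberg adjustment over all genes tested, at 0.1. Each comparison was fitted on its own groups. DESeq2 1.42.0 and other alternatives are given in the closing section. The fits were also run on simulated counts with the same spread between mice for every gene and no tissue differences. That setting is simpler than these data, so it does not show how the fits perform on them. Correlations used 100000 permutations with scipy 1.17.1. CPM used TMM over all 38 libraries, and a choroid plexus sum above 1000 CPM was counted as high, a limit chosen after seeing the data.

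The members, marker lists, motifs and tests were chosen with earlier results of these data known. All 7 members were named in every comparison. From the list of other plaque-associated genes and that of receptors and partners, the genes with the smallest adjusted p between genotypes with placebo at 10 months were named, up to 5 each; partner genes tied at an adjusted p of 1 were not. For likeness of pattern, the 3 genes of highest r were named. Of 111 list genes, 110 were found. The microglia and oligodendrocyte marker sums each include 1 further gene that is not reported here.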

Additional observations from a re-analysis of the deposited data

Results flagged for a closer look

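In 7 of the 56 combinations of gene and group, 1 mouse stood apart from the rest of its group by Dixon's criterion, which chance alone meets in about 1 of 20. All 7 were the highest value of their group. Spp1 gave 4 of them, 1 in each group of 10 months. Mouse 57 (placebo-treated APPPS1ΔE9) had 14.6 CPM where the others had 2.64 to 5.76. Mouse 97 (anle138b-treated APPPS1ΔE9) had 15.3 CPM against 2.98 to 7.35, mouse 52 (placebo-treated WT) 19.5 against 3.07 to 3.9, and mouse 63 (anle138b-treated WT) 11.9 against 3.33 to 3.79. These mice also had the most leptomeningeal fibroblast marker RNA of their groups, 213 to 301 CPM. Mouse 55, with 213 CPM of these markers, had Spp1 at only 3.9 CPM. The part of these markers in the values of Spp1 was not tested.

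Gpnmb was at 44.5 CPM in mouse 93, an anle138b-treated APPPS1ΔE9 mouse of 10 months, where the other 6 had 7.18 to 15.9. Lgals3 was at 3.94 CPM in mouse 17, a placebo-treated APPPS1ΔE9 mouse of 6 months and the only one of its group with high choroid plexus markers, where the other 3 had 1.42 to 1.49. Axl was at 80.9 CPM in mouse 39, an anle138b-treated WT mouse of 6 months, where the other 3 had 49.3 to 52.6.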

How the results depend on the processing

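Of the values of single genes under the alternatives, 2320 kept their side of the threshold, 81 lost a call, 31 gained one and 2 called values turned their sign. Of the 2320 that kept their side, 190 had the opposite sign with no call under either setting. The 2 called values were Lgals3 between ages in WT mice, at 0.40 with placebo and 0.33 with anle138b, with choroid plexus level as a covariate, and the cause was not tested. The covariates and subsets by tissue markers were chosen after seeing the data.

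Between genotypes at 10 months the 2 calls with placebo became 5 with oligodendrocyte level as a covariate (of all genes, 55 calls became 121), and the 3 with anle138b became 5 with a term for high Xist (124 became 299). At 6 months with placebo the 2 calls became 1 with the replicate block or the choroid plexus covariate, and 0 with the Xist term, the oligodendrocyte covariate, or only mice of high or of low choroid plexus markers, while calls over all genes went from 12 to 8, 11, 4, 5, 11 and 12 in that order. DESeq2 called 1 member between chows in APPPS1ΔE9 mice of 6 months and 2 for the genotype effect at 10 against 6 months with anle138b, where edgeR called 0 and the choroid plexus and fibroblast covariates gave 1 each. Over all genes DESeq2 called 205 and 42 there, and the covariates 13 and 16, against 9 and 5 with edgeR.

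Between ages in placebo-treated APPPS1ΔE9 mice, 1 call became 2 with DESeq2 or with all 8 groups in a single fit, and 0 at an adjusted p under 0.05, without the count filter, with the replicate block or with the choroid plexus or fibroblast covariate. Over all genes 737 calls became 1320 and 2129, and 217, 522, 1, 0 and 167. In anle138b-treated APPPS1ΔE9 mice, 5 calls became 3 with the block and 2 at 0.05, without the filter, or with the choroid plexus or fibroblast covariate, and 7564 over all genes became 5600, 5784, 7062, 4878 and 3668. In WT mice, the 2 calls with placebo became 0 with the choroid plexus and 1 with the fibroblast covariate, and the 2 with anle138b became 1 with the block and 0 with either covariate. Over all genes 5680 calls with placebo became 1589 and 3858, and 4844 with anle138b became 2600 with the block and 406 and 1217 with the covariates.

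Leaving out 1 mouse gave 0 to 2 calls for genotype at 6 months with placebo, 0 to 3 for chow in APPPS1ΔE9 mice of 6 months, 0 to 1 and 2 to 5 between ages in placebo- and anle138b-treated APPPS1ΔE9 mice, 1 to 3 in placebo-treated WT mice, and 0 to 2 for the genotype effect at 10 against 6 months with anle138b. Calls over all genes ranged from 6 to 205, 6 to 317, 22 to 1431, 5582 to 8491, 4066 to 6378 and 2 to 23 in the same order. In no comparison did every pair of same-numbered mice deviate together (correlations of −0.55 to 0.57), so the replicate numbers were not taken as pairs. The mean correlation was highest between the chows in WT mice, at 0.31 at 10 months and 0.2 at 6 months. Clec7a and Itgax had 3 to 27 counts per WT mouse, which limits their fold changes.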
